A study of Mus musculus with 2 samples.

Results

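The anaphase-promoting complex is represented here by 10 genes: 8 for subunits of the complex (Anapc1, Anapc2, Anapc4, Anapc5, Anapc7, Anapc10, Anapc11 and Anapc13) and 2 for the activators that load substrates onto it (Cdc20 and Fzr1, the mouse Cdh1). The genes were chosen by name, with the knockout-minus-wild-type differences of their probes already known, so those differences are given as a description with no test. They are 10 of 37074 gene names on the array, and their 27 probes are 27 of 56600. Transcripts were measured in unfertilised oocytes of C57BL/6 mice that were wild type (Mul1 +/+) or knockout (Mul1 -/-) for Mul1, an E3 ubiquitin and SUMO ligase of the mitochondrial outer membrane. RNA of 213 wild-type and 123 knockout oocytes, each a pool, was hybridised to 1 single-colour Agilent array per genotype, and the labels give neither treatment nor age nor the part of Mul1 that was deleted. With 1 array per genotype no difference has a replicate check.

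The anaphase-promoting complex, or cyclosome (APC/C), is a large ubiquitin ligase that marks proteins for destruction by the proteasome and so drives cells out of metaphase. Cdc20 activates it at the metaphase-to-anaphase transition, where cyclin B and securin are destroyed, and Fzr1 activates it at other times. In mouse oocytes the Fzr1-bound form helps to hold meiosis at prophase, and the Cdc20-bound form drives the first meiotic division. An unfertilised egg then waits at metaphase of the second division with the complex held inactive by Emi2, the product of Fbxo43, until the calcium signal of fertilisation releases it.

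Probes of the same gene gave different values, so probe sequences are shown first, 5′ to 3′, with positions on mouse build mm9 from the scanner files. No exon annotation of mm9 was used here, so exon, intron and untranslated region are not stated. The Anapc1 gene is read from the minus strand of chromosome 2. Shown are its upstream RefSeq mRNA probe at chr2:128443326-128443385 and its 3 measured probes to Ensembl transcripts, at chr2:128503402-128503461, chr2:128483457-128483516 and chr2:128455320-128455379. They were picked because the RefSeq probe was higher on the knockout array and the Ensembl probes were lower. The last RefSeq probe of the gene, not shown, differed by -0.01.
Anapc1 upstream RefSeq probe: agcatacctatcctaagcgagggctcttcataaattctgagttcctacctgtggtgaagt
Anapc1 ENSMUST00000134485 probe: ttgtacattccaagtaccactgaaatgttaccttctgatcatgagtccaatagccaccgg
Anapc1 ENSMUST00000123503 probe: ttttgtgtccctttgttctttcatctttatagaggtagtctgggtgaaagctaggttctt
Anapc1 ENSMUST00000154320 probe: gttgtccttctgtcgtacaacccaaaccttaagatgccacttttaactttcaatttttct

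Both activators have a probe upstream of their last one, shown because each gave nearly the difference of the last probe. The Cdc20 probe lies at chr4:118107356-118107415 on the minus strand. The Fzr1 probe covers chr10:80830267-80830416 on the minus strand, which is 150 bases of genome for a probe of 60 bases, so its sequence is interrupted in the genome.
Cdc20 upstream probe: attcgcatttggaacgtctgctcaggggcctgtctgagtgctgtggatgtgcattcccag
Fzr1 interrupted probe: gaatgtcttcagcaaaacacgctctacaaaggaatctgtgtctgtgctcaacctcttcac

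The RefSeq probes were searched on the strand read for the polyadenylation signal AATAAA and the cytoplasmic polyadenylation element TTTTAT, the control element of stored maternal mRNA, and 30 bases around each match are shown with the match in capitals. In the Cdc20 stretch a pair of matches overlaps by a base. The signal was found in 2 of 16 RefSeq probes of the members, those of Anapc5 and Anapc7, against 11.6% of all RefSeq probes well above background. The cytoplasmic element was found in 1 of 16, the last probe of Cdc20, against 3.88%. The Anapc5 probe lies at chr5:123237740-123237799 on the minus strand, that of Anapc7 at chr5:122894401-122894460 on the plus strand, and that of Cdc20 at chr4:118105534-118105593 on the minus strand.
Anapc5 last probe: atgctatcttgtcAATAAActgttctgatc
Anapc7 last probe: acaggctcacctAATAAActgttcagtgtg
Cdc20 last probe: acgcatttcctttcttgtTTTTATTTTATt

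Signal is the scanner's background-subtracted brightness of a probe. Differences are log2, knockout minus wild type, after each array was scaled to its 75th percentile, and the error in brackets is the scanner software's own error carried through to the difference. That error covers a spot and not the spread between pools or animals. Of the 27 probes, 24 were well above background on both arrays, 2 in the wild type only and 1 on neither. The median difference of the 22921 genes measured was 0.03. In bulk samples such as these, fewer cells of a type and less RNA per cell cannot be told apart.

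The deleted gene and the cell content were checked first. The RefSeq probe of Mul1 read 3353 in wild type and 1074 in the knockout, a difference of -1.61 (0.20), and a dim Ensembl probe read 19.3 and 23.1. All 12 oocyte markers were well above background on both arrays, with a median of 0.04, from Dppa3 at -0.21 to Ooep at 0.94. Of these markers 6 were above 0 and 6 below, and their summed signal was 171710 in wild type and 157069 in the knockout. Ooep was dim, at 33.5 in wild type and 62.7 in the knockout. Other cell types were also present and differed between the pools. All 12 myeloid markers were above 0 with a median of 1.79, from Itgam at 0.24 to S100a9 at 3.27. Their summed signal was 38926 in wild type and 87531 in the knockout. With the brightest probe of each gene 10 of the 12 were above 0, with the same median. All 5 red cell markers were below 0, from Hba-a2 at -1.66 to Alas2 at -1.03, with summed signals of 87059 and 27662. Of 10 cumulus and granulosa markers 7 were above 0, with a median of 0.33, from Amh at -0.81 to Has2 at 1.16, and summed signals of 148836 and 164699. No gene of these lists lacked a measured probe, and the part of these cells in the values below was not tested.

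As gene means over measured probes, 5 of the 10 members were above 0 and 5 below, with a median of 0.02, where 54.8% of all genes were above 0. No member was 1.5-fold apart in either direction, where 13.0% of all genes were. That share covers genes of every signal. Among RefSeq probes with signals over 3000, where 13 of the 16 RefSeq probes of the members lie, 1.77% were 1.5-fold lower and 1.18% higher. The 13.0% is thus not a share for probes this bright. The means hid a split by probe. RefSeq mRNA here means accessions that begin with NM_ only, so those that begin with XM_ count as other. The 16 probes designed to RefSeq mRNAs had a median of 0.17, from -0.15 to 0.33, and 13 were above 0, where 56.2% of all measured RefSeq probes were. All 16 were within 2 errors of no difference, 12 of them within 1 error. The software's error was 0.20 at every RefSeq probe of the members, so within 1 error means only a difference smaller than that. It is wider than the median SD of 0.04 between spots of replicated probes, and neither figure covers the spread between pools. The 8 measured probes to other transcripts had a median of -0.43, and 6 were below 0. Of all measured probes not to a RefSeq mRNA, Ensembl probes included, 51.7% were below 0. None of these 8 reached a wild-type signal above 351, while the dimmest RefSeq probe read 1396.

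**Figure D1:**
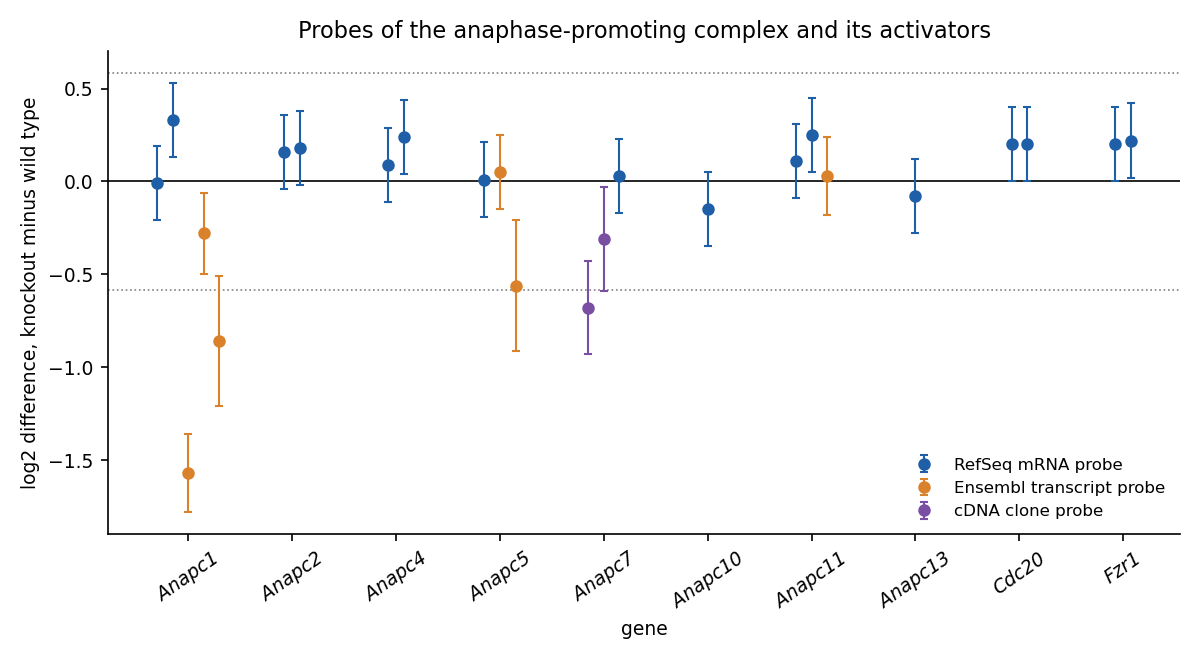
Log2 difference (knockout minus wild type) of each of the 24 member probes well above background on both arrays, by gene. Points are single probes, coloured by the accession they were designed to, bars are the propagated scanner error and dotted lines mark 1.5-fold. The RefSeq points lie between -0.15 and 0.33, and 3 other points, 2 of Anapc1 and 1 of Anapc7, lie below the lower dotted line.

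Of the 24 measured probes, 3 were at least 1.5-fold lower on the knockout array, where 6.40% of all measured probes were, and 0 were at least 1.5-fold higher, where 7.36% were. The same 3 probes were lower by at least 2 errors, where 9.41% of all probes were, and 0 were higher by that margin, where 10.2% were. Among the RefSeq probes of the members 0 were 1.5-fold lower, where 3.27% of all RefSeq probes were. Among their 6 measured Ensembl probes 2 were, where 12.4% of all Ensembl probes were. All these shares cover probes of every signal, and 1.5-fold shares by signal are given below.

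The activators gave nearly the same difference at each of their probes. Cdc20, which brings cyclin B and securin to the complex, read 9581 in wild type and 10732 in the knockout at its last probe. Its upstream probe, 1 of the sequences above, read 4190 and 4714. Both probes gave 0.20 (0.20), a 1.15-fold higher signal in the knockout pool, within the error of the scanner.

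Fzr1, the activator of prophase arrest, read 7404 in wild type and 8295 in the knockout at its last probe, and 2711 and 3089 at the interrupted probe. The differences were 0.20 (0.20) and 0.22 (0.20). The gap between the probes was 0.02 for Fzr1 and 0.01 for Cdc20, where the gap between 2 RefSeq probes of a gene had a median of 0.14 over 4584 genes. The mean difference stayed above 0 under all 11 other ways of processing, from 0.19 to 0.33 for Cdc20 and from 0.20 to 0.34 for Fzr1. The upper ends came from spike-in scaling, which moved the median of all genes to 0.16. All these ways read the same arrays, so they are no replicate check.

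The catalytic centre of the complex is formed by Anapc2, a cullin, and Anapc11, a RING protein that binds the E2 enzyme. Anapc2 read 19532 in wild type and 21388 in the knockout at its last probe. Its upstream probe, whose sequence is spread over 726 bases of genome, read 2012 and 2231. The knockout array was slightly higher at both, by 0.16 (0.20) and 0.18 (0.20).

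Anapc11 read 21310 in wild type and 22446 in the knockout at 1 RefSeq probe and 6434 and 7464 at the other. Its Ensembl probe read 293 and 292. The differences were 0.11 (0.20), 0.25 (0.20) and 0.03 (0.21). All 5 probes of the catalytic pair were above 0, and the probe with the largest difference, 0.25, was 1.21 errors from 0.

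Anapc10, the subunit that helps the activators to bind substrates, read 6830 in wild type and 6020 in the knockout at its single probe. The difference was -0.15 (0.20), the lowest of the 16 RefSeq probes and less than 1 error from 0. Anapc13, a small subunit that steadies the complex, read 19924 and 18445, a difference of -0.08 (0.20). Under scaling on the spike-in controls, which moved the median of all genes to 0.16, Anapc13 turned to 0.06 and Anapc10 read -0.01.

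Anapc4 and Anapc5 belong to the platform that joins the catalytic centre to the rest of the complex. Anapc4 read 12986 in wild type and 13536 in the knockout at its last probe, a difference of 0.09 (0.20). At a probe spread over 140 bases of genome it read 1396 and 1615, a difference of 0.24 (0.20). Its Ensembl probe read 11.0 and 3.23 and was well above background on neither array. If that probe is averaged in, the Anapc4 mean of 0.17 becomes -0.47.

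Anapc5 read 62479 in wild type and 61340 in the knockout at its last probe, a difference of 0.01 (0.20). An Ensembl probe (ENSMUST00000200058) read 351 and 356, a difference of 0.05 (0.20). The dimmest (ENSMUST00000197554) read 27.5 and 18.2, close to the lowest signals well above background, 12.9 in wild type and 15.8 in the knockout. Its difference of -0.56 (0.35) alone put the Anapc5 mean at -0.17.

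Anapc7, a subunit of the arc of repeat proteins that receives the activators, read 5689 in wild type and 5682 in the knockout at its RefSeq probe, a difference of 0.03 (0.20). The pair of probes to the cDNA clone AK049968 was lower on the knockout array. The first read 65.9 and 40.1, a difference of -0.68 (0.25), and the second 39.0 and 30.8, a difference of -0.31 (0.28). The gene mean of -0.32 became 0.03 with the RefSeq probe alone.

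Anapc1 is the largest scaffold subunit and had the widest spread of the members, with an SD of 0.75 between its 5 measured probes. The last RefSeq probe read 9048 in wild type and 8811 in the knockout, a difference of -0.01 (0.20). The upstream RefSeq probe read 3134 and 3849, a difference of 0.33 (0.20), 1.61 errors above 0. The gap between them, 0.33, lay under the 90th percentile of 0.46 for gaps between 2 RefSeq probes of a gene.

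The Ensembl probes of Anapc1 lie 16823 to 72352 bases upstream of the last probe. The probe to ENSMUST00000134485 read 351 in wild type and 116 in the knockout. Its difference of -1.57 (0.21), 2.96-fold lower, lay -7.53 errors from 0 and was the largest of any member probe that was measured on both arrays. The probe to ENSMUST00000154320 read 38.1 and 20.5, a difference of -0.86 (0.35). That to ENSMUST00000123503 read 84.0 and 67.8, a difference of -0.28 (0.22).

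The remaining probes of Anapc1 passed the background filter in the wild type only. The probe to ENSMUST00000110333 read 19.9 there and 6.92 on the knockout array, at least 1.23-fold lower against the lowest signal well above background. That to ENSMUST00000110332 read 14.3 and 6.74, too dim for a bound. The 3 Ensembl probes measured on both arrays thus differed by -1.57, -0.86 and -0.28, while the RefSeq probes differed by -0.01 and 0.33. The gene mean was -0.48 over measured probes, 0.16 over RefSeq probes and -0.90 over Ensembl probes.

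**Figure D2:**
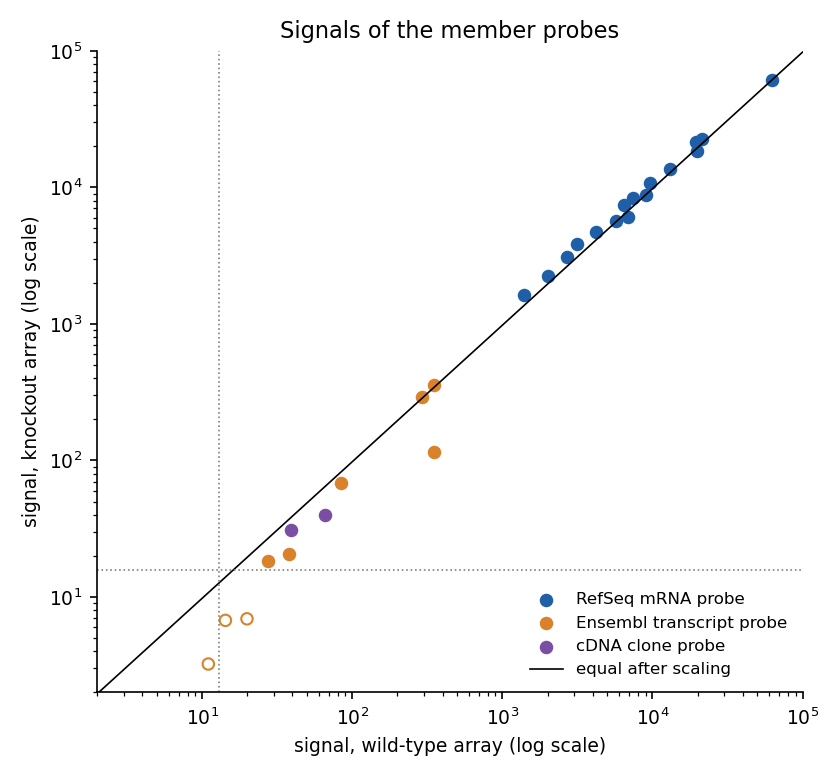
Signal of each of the 27 member probes on the wild-type array (x axis) and the knockout array (y axis), both on log scales. Filled points were well above background on both arrays and open points were not, the solid line marks equal signals after scaling, and dotted lines mark the lowest signals well above background (12.9 and 15.8). The RefSeq probes, at 1396 and above, follow the line, and most of the dimmer probes lie under it, the probe at 351 in wild type and 116 in the knockout farthest among the filled points.

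The split between probe kinds held under the other scalings of the arrays. Of the 16 RefSeq probes 13 were above 0 under each of them, and 15 with scaling on spike-in controls. Of the 8 others 6 were below 0 under each of them. The size of the lower values was less steady. Their median was -0.13 after normexp background correction and -0.54 after loess, and the number at least 1.5-fold lower went from 1 to 4. Normexp was run with an offset of 50 added to every signal, which by construction draws the differences of dim probes toward 0. The smaller sizes after normexp are therefore no check of the lower values. The largest Anapc1 difference was -1.21 after normexp and -1.43 with spike-in scaling. After normexp the Anapc1 probe to ENSMUST00000154320 went from -0.86 to -0.19 and the lower Anapc7 clone probe from -0.68 to -0.30. The gene means then became -0.26 for Anapc1, -0.10 for Anapc7 and -0.02 for Anapc5.

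Over the whole array the lean of a probe kind depended on its signal, taken as the geometric mean of both arrays. At 100 to 300, the range of the largest Anapc1 difference, 57.8% of all Ensembl probes and 43.5% of all RefSeq probes were below 0, and 16.7% and 4.29% were at least 1.5-fold lower. The range of 30 to 100 holds the Anapc1 probe at -0.28 and the Anapc7 pair. There 55.6% of Ensembl probes and 51.6% of probes that were neither Ensembl nor RefSeq mRNA were below 0, and 16.8% and 14.5% were at least 1.5-fold lower. Under 30, where the Anapc1 probe at -0.86 and the Anapc5 probe at -0.56 lie, the lean was the other way: 43.5% of Ensembl probes were below 0, with a median of 0.11, and 8.91% were at least 1.5-fold lower against 16.1% higher. Over 3000, where 13 of the 16 RefSeq probes of the members lie, 46.2% of RefSeq probes were below 0. At least 1.5-fold lower were 1.77%, against 1.18% higher. No test here sets the lower probes of Anapc1, Anapc5 and Anapc7 apart from other probes of that kind and signal, and the cause of the difference between probe kinds was not tested.

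**Figure D3:**
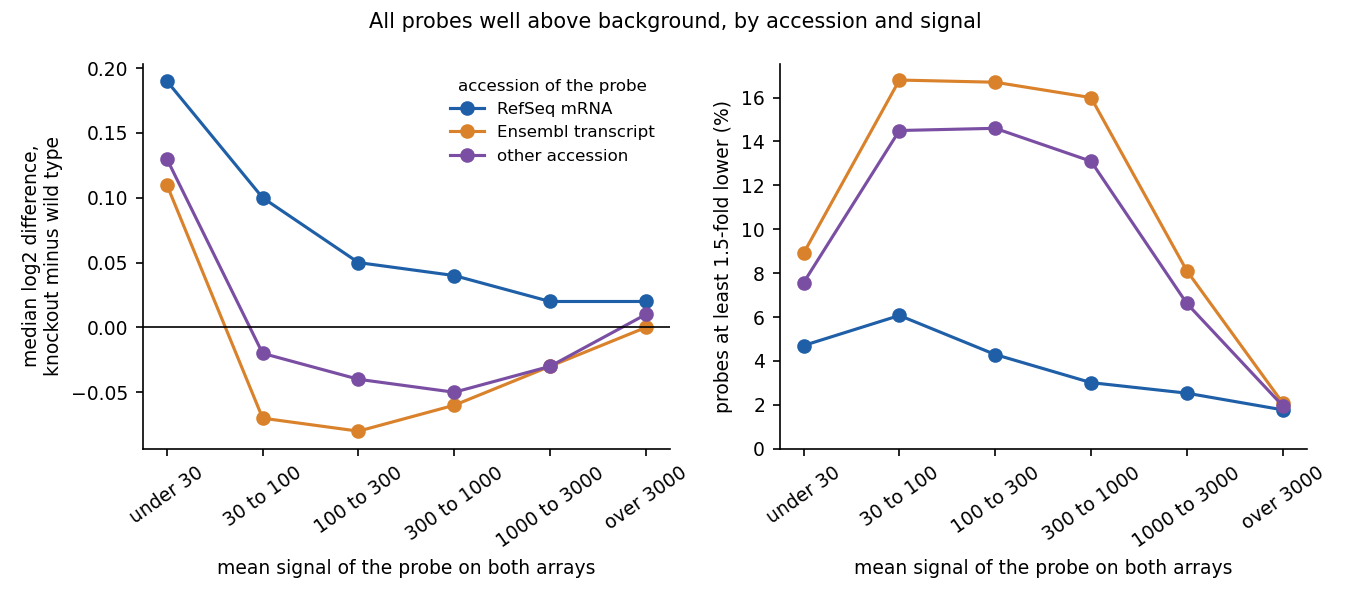
All probes well above background on both arrays, grouped by the accession they were designed to and by mean signal. Other accession means neither RefSeq mRNA nor Ensembl transcript. The left panel gives the median log2 difference (knockout minus wild type) and the right panel the percentage at least 1.5-fold lower on the knockout array. Between signals of 30 and 1000 the Ensembl line of the right panel stays at 16.0% to 16.8%, and the RefSeq line at 3.01% to 6.07%.

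The same comparison was made gene by gene. Of 2087 genes with both kinds of probe, 58.5% had a lower mean at their Ensembl probes than at their RefSeq probes, with a median gap of -0.08. All 3 members with both kinds were on that side, Anapc1 by -1.06, Anapc5 by -0.26 and Anapc11 by -0.15. With the other subunits of the complex 6 of 7 were, with a median of -0.21.

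Of all genes measured, whatever their signal, 54.8% were above 0 and 13.0% at least 1.5-fold apart, the shares to set beside the gene lists below. The other subunits were read from a list of 6 genes. Their median was -0.07, with 2 above 0, and 0 were 1.5-fold apart. Cdc23, a repeat protein of the arc, was highest at 0.13. Anapc16, a small subunit, was lowest at -0.35 and showed the split of Anapc1. Its RefSeq probe read 8273 in wild type and 9279 in the knockout, a difference of 0.20 (0.20). Its Ensembl probes read 532 and 320, a difference of -0.70 (0.20), and 85.7 and 57.7, a difference of -0.54 (0.22). The median of these subunits turned to 0.09 with RefSeq probes alone, to 0.02 with the brightest probe of each gene and to 0.06 with spike-in scaling.

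The E2 enzymes that hand ubiquitin to the complex were near 0. Of 5 genes 3 were above 0, with a median of 0.02, from Ube2d3 at -0.10 to Ube2c at 0.37. Ube2c starts ubiquitin chains on APC/C substrates, and its probe read 5416 in wild type and 6850 in the knockout.

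Inhibitors of the complex include Fbxo5, which makes Emi1, Fbxo43, which makes Emi2 and stood at -0.06, and the proteins of the mitotic checkpoint. Of 9 genes 7 were above 0, with a median of 0.10. Fbxo5 was lowest at -0.08, at signals of 1532 in wild type and 1420 in the knockout, and Ttk, the kinase at the head of the checkpoint, was highest at 0.30. Genes that act for or against the lifting of checkpoint inhibition were 4 in number, with Anapc15 shared with the subunit list. Their median was -0.05, which turned to 0.09 with spike-in scaling and to 0.06 with RefSeq probes alone. They ran from Usp44 at -0.52 to Trip13, the ATPase that remodels Mad2, at 0.09. Usp44 is a deubiquitinase of Cdc20 that acts against the lifting. It had 1 measured probe of 3, not a RefSeq probe, with signals of 122 in wild type and 82.7 in the knockout.

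Kinases and phosphatases that act on the complex or its activators had a median of 0.15, with 8 of 10 above 0. Cdc14a, a phosphatase, was highest at 0.79 and was the 1 gene of this list at least 1.5-fold higher. Its 2 RefSeq probes averaged -0.07 and its 3 others 1.37, a split opposite in direction to that of Anapc1. Ppp2r5e, a regulatory subunit of PP2A, was lowest at -0.56, with probes from -1.23 to -0.12. Its 1 RefSeq probe differed by -0.32 and its 2 others averaged -0.68.

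Substrates of the activators leaned above 0, where 54.8% of all genes were above 0. Of the 7 listed substrates of the Cdc20-bound form, 6 were measured and all 6 were above 0, with a median of 0.19; Ccna1 was not well above background. Ccnb1, the main B-type cyclin of the oocyte, was lowest at 0.04, with its brightest probe at 11583 in wild type and 11479 in the knockout. Ccnb3, the cyclin of the first meiotic division, was highest at 0.93 but read only 14.7 and 27.5, near the limit of detection. With the brightest probe of each gene 5 of 6 were above 0, and the median was 0.1 in place of 0.19.

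All 12 listed substrates of the Fzr1-bound form were above 0, with a median of 0.25; Cdc20 is among them. Rrm2, a ribonucleotide reductase subunit, was lowest at 0.03. Aurkb, the kinase of the chromosomal passenger complex, was highest, with its RefSeq probes at 0.83 and 0.84 and its brighter one at 659 in wild type and 1142 in the knockout. The median ran from 0.24 to 0.39 over the other ways of processing, with 11 of 12 above 0 when the brightest probe stood for each gene.

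All 8 markers of cycling cells were also above 0, with a median of 0.29, from Pcna at 0.22 to Mcm5 at 0.52, and their summed signal was 48045 in wild type and 58641 in the knockout. The part of cycling somatic cells in the values of the substrates was not tested.

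Separase and the proteins it cuts or spares were measured for 5 genes of 8 on the array, with 4 above 0 and a median of 0.11. Rad21, the cohesin subunit of mitotic cells, was lowest at 0.00, and Rec8, its meiotic counterpart, was highest at 0.43. Over all lists, 58 genes that are not members were on the array and 54 were measured, of which 42 were above 0. Their median was 0.13, and 3 were at least 1.5-fold higher (Cdc14a, Ccnb3 and Aurkb) and 0 lower. Of all genes, 13.0% were that far apart in either direction. With spike-in scaling, 72.7% of all genes in place of 54.8% were above 0, so these counts above 0 depend on the scaling.

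**Figure D4:**
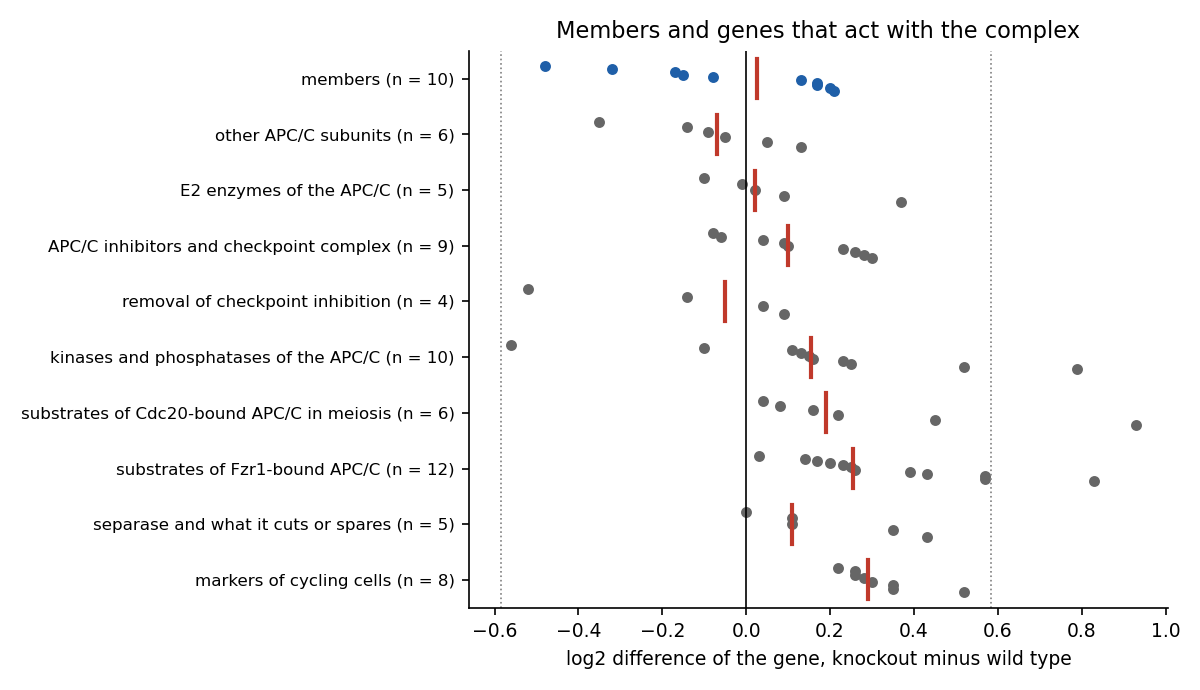
Log2 difference (knockout minus wild type) of the 10 members (blue) and of the genes of each list (grey), as means over measured probes, with the list's median as a red bar and 1.5-fold as dotted lines. Some genes stand in more than 1 list. The members spread to both sides of 0 with a median of 0.02, and all 12 substrates of the Fzr1-bound form and all 8 markers of cycling cells lie above 0.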

How the data were processed

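RNA of 1 pool of oocytes per genotype was amplified to Cy3-labelled cRNA with Agilent's low-input kit, per the labels' protocols. The deposited scanner files give linear spot intensity, background-subtracted and not scaled between arrays, written by Agilent Feature Extraction 10.7.1.1 per the file headers; the submitters' processing notes name 9.5.1.1. The array design is 074809, with probes of 60 bases placed on mm9 per the file headers. The authors' series-wide table also holds intensity, and its sorted columns agree within 0.007 on the log2 scale, so it is quantile normalised. It served as an alternative.

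From the processed intensity, log2 was taken, spots with outlier flags were dropped (88 wild-type and 84 knockout spots), and each array's 75th percentile was subtracted (signals of 807.6 and 789.6). No member probe was flagged or saturated, and each had 1 spot. Of 56600 probes, 35255 (62.3%) were well above background on both arrays. A gene's value is the mean over these. Between spots of 296 replicated probes the median SD was 0.04. The number of arrays, 1 per genotype, limits the precision: no test was possible, sizes were described beside the percentage of all genes or probes past the same size, and p-values were not computed. The difference step was checked on simulated data.

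Gene names are those of the array files. Members, gene lists and alternatives were chosen with earlier results of these data known. Named were all members with every probe, the highest and lowest gene of each list, and every listed gene at least 1.5-fold apart; Anapc15, Ccna1 and Fbxo43 are named outside this rule, after their values were seen. Promoters were not printed, since no measurement bears on them. Python 3.11.15, numpy 2.4.6, pandas 2.3.3, statsmodels 0.14.6, matplotlib 3.10.9, R 4.3.3 and limma 3.58.1 (normexp) were used.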

Additional observations from a re-analysis of the deposited data

How the results depend on the processing

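Other scalings, normexp background correction, the authors' table, filters on dim probes, the choice of probe and the use of outlier flags gave 10 alternatives, and RefSeq mRNA probes alone were added after seeing the data. Of 242 values, 234 were counted as steady and 8 as moved, with a limit of 1.5 times for a count. The limit for a difference was not the spread between the gene's own probes. Cdc20, with an SD of 0.0 between probes, counted as steady at 0.33 in place of 0.20. Anapc1, with an SD of 0.75, counted as moved at -0.01 in place of -0.48. The 234 therefore do not measure steadiness against a gene's own probes. Without a filter on dim probes 1 member, Anapc1 at -0.70, was at least 1.5-fold apart, and Anapc4 read -0.47. With RefSeq probes alone 8 members were above 0 in place of 5, and Anapc1 read 0.16. Anapc1 read -0.01 with the brightest probe of each gene, and Anapc7 read 0.03 with that choice, with RefSeq probes alone and with the stricter filter. Anapc13 was above 0, at 0.06, with spike-in scaling, and Anapc5 with the stricter filter, at 0.03, and with the brightest probe or RefSeq probes alone, at 0.01. After normexp, whose offset of 50 draws dim probes toward 0, Anapc1 read -0.26, Anapc7 -0.10 and Anapc5 -0.02. The median over the members ran from -0.11 to 0.16. Differences of probes near the signals of 12.9 and 15.8 are limited by signal over background. No paired analysis was possible because each genotype has 1 array, and for the same reason no array could be left out.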
